A study of Mus musculus with 8 samples.

Results

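Gene expression in 2 mouse cell lines carrying histone H3.3 with lysine 36 replaced by methionine (K36M) or isoleucine (K36I) was compared with that in 4 lines carrying H3.3 that was wild type (WT) or had alanine (K36A), leucine (K36L) or arginine (K36R) at that position. These 6 libraries are the H3.3 libraries among the 8 of the series. The other 2, H3.1 with K36M and H3.1 with K36R, entered no test and served as a separate pair. Of the 31276 genes in the deposited table, 14151 were kept, those whose mean over the 6 libraries lay at least 1 above the lowest value on the log2 scale of the table, or about 31 normalised reads.

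Every line was made from C3H10T1/2, cells of C3H mouse embryos that behave as multipotent mesenchymal cells and can be driven towards cartilage, bone, fat or muscle. Each stably expressed 1 transgene with a FLAG-HA tag beside the cells' own histone genes, in DMEM with serum, within 1 shared range of passages. Total RNA was sequenced, with 1 library per transgene and no replicate of any, so the lines are the samples (n = 2 against n = 4) and a class difference is set against the spread between lines with different substitutions. The labels do not speak of repeat derivations or cultures of a line, and p-values therefore reflect only the spread between these lines, part of which may be technical. The sources used here give neither the promoter of the transgene, nor its amount in each line, nor whether a line is 1 clone.

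Methylation of H3 lysine 36 is placed by the enzymes NSD1, NSD2, NSD3 and ASH1L over intergenic and promoter-near chromatin and by SETD2 along transcribed genes. K36M, found in the cartilage tumour chondroblastoma, and K36I bind these enzymes and inhibit them, so that methylation is also lost from other H3 molecules of the cell. Other replacements of lysine 36 remove the site from the transgene's own product without this inhibition. The mark hinders PRC2, the complex that methylates lysine 27 of H3 at silenced developmental genes, and its loss lets that silencing mark spread.

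The 6 libraries held 61139941 to 68020958 reads assigned to genes, so a count of 0 allows up to 2.55 to 2.92 normalised reads (3 reads, counting error only). The H3.1 libraries held 45448249 (K36M) and 53199065 (K36R). The 45S ribosomal transcript Rn45s took 2.19% of reads in K36M, 1.90% in K36I and 1.66% to 5.24% in the other 4, with K36A highest. More genes had a read in K36M (20133) and K36I (20003) than in the other 4 lines (18766 to 19196), and H3.1 K36M (19893) stood above H3.1 K36R (19029) as well. The leading principal component of the genes kept held 67.9% of the variance and placed K36M at 46.3 and K36I at 42.8, against -28.5 to -15.8 for the other 4. The next component (14.7%) set K36R (26.1) and K36M (10.8) against K36A (-15.6), K36L (-14.1) and K36I (-8.26).

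Mesenchymal markers were present in all 6 lines, with 15 of 16 past the filter. Their summed level was 730601 normalised reads in K36M and 770319 in K36I, against 993868 to 1290009 in the other 4, and Fap was at or near 0 throughout. The sum rests mostly on a few abundant genes. Of the 15 kept, 2 passed as higher and 3 as lower, with a median of -0.19. Leukocyte markers summed to 9894 in K36M and 5810 in K36I against 706 to 1241, mostly through Cd53 and Lcp1. Of the 19 measured, 6 were kept, 3 of which passed as higher and 5 of which were higher at an unadjusted p under 0.05 (median 0.70). Over all 14151 genes kept, 4710 had an unadjusted p under 0.05 in either direction, the background for every unadjusted count given here. Lyz2 was at 373 and 305 against 146 to 182 (0.69, lost without K36M, limma adjusted p = 0.0840), Cd14 at 495 and 442 against 139 to 385 and Cd68 at 161 and 241 against 104 to 149. Ptprc reached at most 7.63 normalised reads in any line, Tyrobp 1.70, Spi1 19.2, Itgam 33.5 and Csf1r 33.2, and Cd52 and Cd3e were at 0 in all 6. The part of such cells in the results was not tested. Epithelial markers summed to 3261 and 5032 against 10759 to 21009, carried by Krt14, Perp and Pkp1, with 4 of 8 kept markers lower and 2 higher at an unadjusted p under 0.05. Cdh1 was clearly expressed and not lower, at 702 and 1065 against 292 to 787. Further markers were higher from low levels: Krt8 was at 47.7 and 76.6 against 1.90 to 14.9, Ocln at 44.9 and 45.9 against 0 in all 4, and Dsp at 30.5 and 23.8 against 0 to 7.79. Epcam was at most 1.86. In bulk RNA, fewer cells of a type and less RNA per cell cannot be told apart.

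K36M and K36I parted from the other lines in 2516 of 14151 genes, 17.8% (limma, two-sided, Benjamini-Hochberg adjusted p under 0.05 over all genes kept). Of these, 1190 (8.41% of all kept) were higher and 1326 (9.37%) lower in K36M and K36I. Counts of list genes given below are to be read beside these shares. Both lines lay outside the range of the other 4 in every called gene, as they did in 44.3% of all genes kept. Differences are given as the mean of K36M and K36I minus the mean of the other 4, on the deposited log2 scale, on which the median over all genes kept was -0.01. A gene low in 1 class was kept only if it was high in the other and so had to differ. All 4 comparison lines lay below the filter value in 46 kept genes, 44 of them called higher, and both K36M and K36I did in 160, 77 of them called lower. Of genes named below, the former were Itih2, Apob, Gpnmb, Slfn5, Wnt7a, Wnt7b, Ryr1, Add2, Fat2, F13a1 and Gm2381. The latter were Eln, Hey1, C1qtnf3, Pappa, Cytl1, Nebl, Pgm5, G0s2, Zfp423, Itga4, Epas1, Lhx9, Tbx2, H19 and all lost genes. Eln and Hey1, each at 30.5 normalised reads in K36M and lower in K36I, lie just below the filter value of about 31. They are missing from the counts of 160 and 77, which used rounded values. For the genes named in either group the call gives no support of its own. Differences reached at least 1 in 350 higher and 424 lower genes and at least 2 in 87 and 124. With library medians set equal, 1547 genes were higher and 1090 lower, a higher share of 58.7% in place of 47.3%. Leaving out 1 line lowered the count of called genes to 866 without K36M, 1022 without K36I and 1627 without WT, and the list counts below shrank with it, most of all without K36M or K36I.

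**Figure D1:**
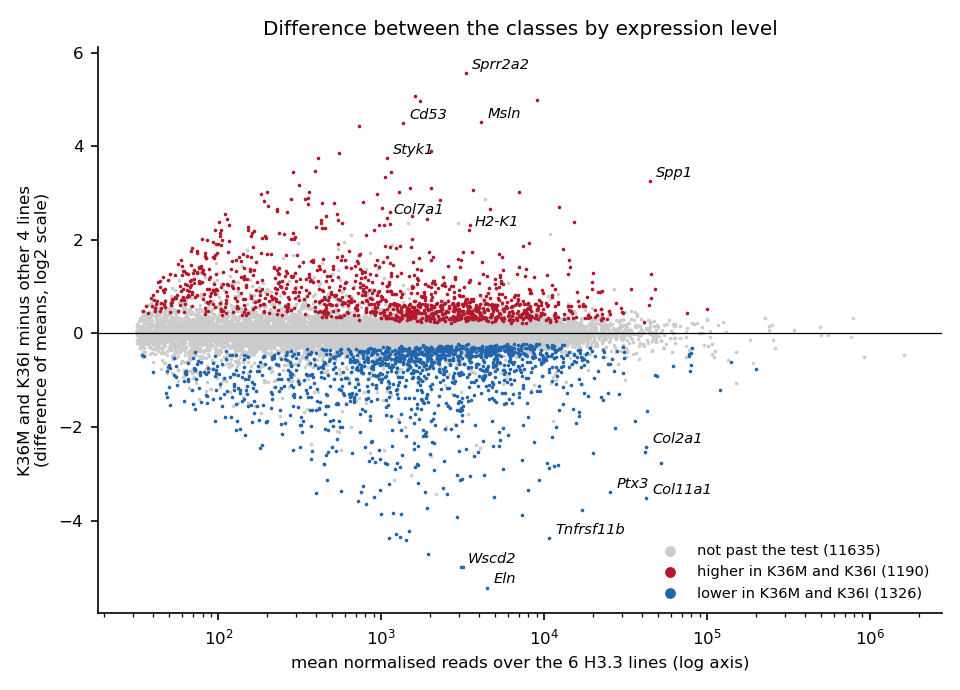
Difference between the classes (K36M and K36I minus the other 4 lines, log2 scale) for each gene kept, against its mean normalised reads over the 6 H3.3 lines on a log axis. Genes that passed the test are red (1190 higher) or blue (1326 lower), and grey points are the genes that did not pass.

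The 12 largest rises among named genes ran from 3.34 to 5.57, and the comparison lines were near 0 in some of these genes and clearly expressed in others. Cd53, a tetraspanin known from leukocytes, stood at 4564 normalised reads in K36M and 3310 in K36I, against 39.0 in WT, 58.4 in K36A, 77.9 in K36L and 156 in K36R. The classes did not overlap, and the difference was 4.49 (SE 0.27, limma adjusted p = 0.000407). Styk1, which encodes a receptor-like kinase, was nearly equal in K36M (3015) and K36I (2944), against 91.1 in WT, 172 in K36A, 113 in K36L and 131 in K36R. Its difference was 3.74 (SE 0.15, limma adjusted p = 8.57e-05). Slfn4, a Schlafen gene known from macrophages and lymphocytes, was at 2979 and 1313 normalised reads in K36M and K36I, 4.65 in WT, 40.2 in K36A, 22.4 in K36L and 1.90 in K36R, a difference of 4.43 (SE 0.36).

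The other large rises were in genes of varied function. Msln, the mesothelial surface protein mesothelin, was at 12955 and 9653 normalised reads in K36M and K36I and at 143 to 1382 in the other 4 (difference 4.52, SE 0.66). Sprr2a2 and Sprr2a1, cornified envelope proteins of the epidermis, rose by 5.57 and 4.96, with K36M far above K36I (18404 against 1386 for Sprr2a2). The 2 annotations overlap on chromosome 3, so the split of reads between them is uncertain. Apob, the apolipoprotein of liver and gut lipoproteins, rose from 3.72 to 8.55 normalised reads in the other lines to 1121 in K36M and 578 in K36I. Itih2, a hyaluronan-binding serum protein gene (3.48), Ppef1, a calcium-regulated phosphatase gene (3.89), and Rnf128, a ubiquitin ligase gene of T cell anergy (3.85), rose too. Pcdh11x (3.45) and Lcp1, the leukocyte actin bundler plastin (3.34), had their nearest comparison line in K36A. With voom weights Sprr2a2 (adjusted p = 0.0887) and Sprr2a1 (0.0911) did not pass. With K36A and K36L alone as comparison lines, Sprr2a1 (limma adjusted p = 0.0627) and Lcp1 did not pass. Without K36M, Msln (limma adjusted p = 0.0523) and Lcp1 (0.122) no longer passed. Pcdh11x did not pass without K36M (0.197), K36I (0.171), WT (0.0861), K36L (0.0613) or K36R (0.0659).

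**Figure D2:**
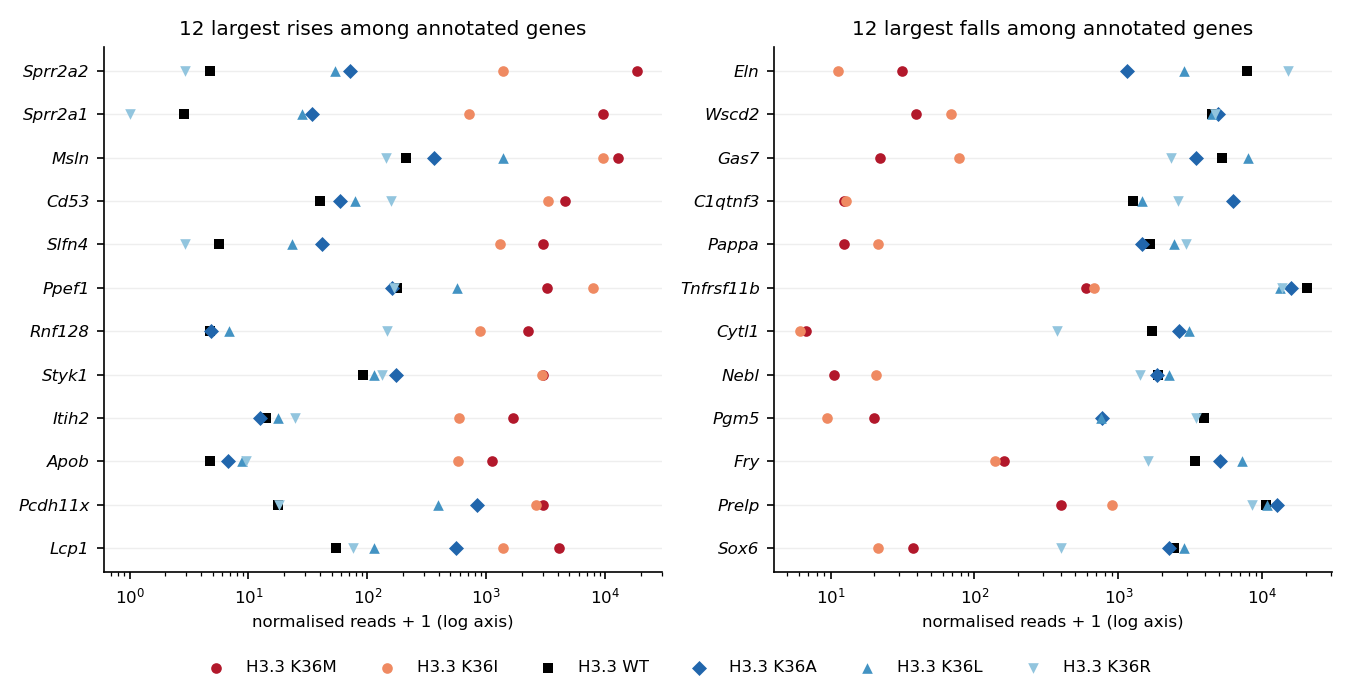
Normalised reads plus 1 on a log axis in each of the 6 H3.3 lines (1 library each) for the 12 largest rises and the 12 largest falls among named genes. K36M and K36I (circles) lie to the right of the other 4 lines in every gene of the left panel and to the left of them in every gene of the right panel.

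The 12 largest falls among named genes ran from -5.43 to -3.86. Wscd2 fell from 4455 normalised reads in WT, 4908 in K36A, 4483 in K36L and 4705 in K36R to 38.2 in K36M and 67.2 in K36I. All 4 comparison lines lay close together, and the difference of -4.99 (SE 0.11, limma adjusted p = 1.07e-05) had the smallest p of the table. Eln, which encodes elastin, was at 30.5 in K36M and 10.2 in K36I, against 7794 in WT, 1137 in K36A, 2838 in K36L and 15057 in K36R. The comparison lines lay far apart, with K36R highest and K36A lowest, but all above both lines. The difference of -5.43 (SE 0.91) did not pass without K36M (limma adjusted p = 0.0603) or K36I (0.0659), or with voom weights (0.187). Tnfrsf11b, which encodes osteoprotegerin, the decoy receptor that restrains osteoclast formation, was at 597 in K36M and 672 in K36I against 13244 to 20262 in the other 4 (difference -4.38, SE 0.17).

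Gas7, an actin-organising gene (-4.98), Nebl, which encodes the Z-disc protein nebulette (-4.29), and Pgm5, a protein of muscle attachment sites (-4.23), fell with them. The secreted factors C1qtnf3 (-4.71) and Cytl1 (-4.34) fell, as did Pappa, the protease that releases IGF from its binding protein IGFBP4 (-4.41), and Prelp, a matrix proteoglycan (-3.88). Fry, a microtubule-linked scaffold gene, was at 160 and 138 normalised reads against 1608 to 7230 in the other 4 (-3.92). Sox6, a transcription factor of chondrocytes, was at 36.3 in K36M and 20.4 in K36I, against 2411 in WT, 2239 in K36A, 2834 in K36L and 397 in K36R. K36R was the lowest of the 4 but still above both lines (-3.86, SE 0.68). Without K36M or K36I, Cytl1, Pgm5 and Sox6 no longer passed. The same 3 genes and C1qtnf3 (adjusted p = 0.0814) did not pass with voom weights. Sox6 was also lost with WT and K36R alone as comparison lines.

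The smallest p-values marked genes in which each class was tight. Col7a1, the collagen of anchoring fibrils, was at 2676 and 2407 normalised reads in K36M and K36I and at 334 to 396 in the other 4 (2.46, SE 0.10, limma adjusted p = 8.57e-05). Ptx3, a soluble pattern recognition protein of inflammation, was at 3324 and 3342 against 30364 to 43283 (-3.39, SE 0.13). Adamts12, a matrix metalloprotease gene (-2.80), Pdzd2 (-3.05), the orphan adhesion receptor gene Gpr64 (-2.70), Chn2 (-3.22) and Dlc1 (-2.27), the last pair encoding GTPase-activating proteins, fell with SEs of 0.09 to 0.14. Plekha2 (1.45), Fam134b, a receptor for autophagy of the endoplasmic reticulum (1.70), Gpnmb (2.55), Cd74, the MHC class II invariant chain (2.06), and Pdk4, a kinase that restrains pyruvate oxidation (1.86), rose with SEs of 0.09 to 0.16. The 4 comparison values of Gpnmb lie near the floor of the scale, which keeps their spread small. The 36 genes named by size or p were chosen for these values. Their passing in other fits to the same lines therefore gives no support of its own. Of the 36, 33 were tested under all 15 alternatives, while Itih2, Apob and Gpnmb fell below the stricter filter.

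Genes of MHC class I presentation rose as a group. MHC class I molecules show peptides from inside the cell to T cells: the heavy chains of the H2 genes pair with beta-2 microglobulin (B2m), the peptides are cut by proteasome subunits such as Psmb9 and moved by the Tap1 and Tap2 transporter, and Tapbp helps load them. NLRC5, the class I transactivator, acts at the promoters of these genes through a conserved module of boxes known as SXY, in which a CRE-like X2 box and an inverted CCAAT box (Y) stand at fixed spacing. Of 17 genes on the list 16 were kept, and 14 (87.5%) were higher and 0 lower, with a median difference of 0.98, beside 8.41% higher and a median of -0.01 over all genes kept. The number higher ran from 9 to 14 over the alternatives and was 9 without K36M or without K36I.

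Promoter windows of 6 of these genes are shown so that the letters of the X2 and Y boxes, where present, can be read beside the expression of the same genes. They come from RefSeq's promoter table (GRCm38.p6, in which 15 of the 17 genes have an entry), run 5′ to 3′ on the gene's strand, and have the letters TGACG (core of a CRE-like box) and ATTGG (inverted CCAAT) in capitals where they stand 24 to 26 bases apart, start to start, or ATTGG alone where no such TGACG is present. The windows of H2-K1 (chr17:34000334-34000423, minus strand), H2-D1 (chr17:35262958-35263047, plus), H2-Q7 (chr17:35439055-35439144, plus) and B2m (chr2:122147574-122147663, plus) hold the pair. Those of H2-Q4 (chr17:35379478-35379567, plus) and H2-Q6 (chr17:35424711-35424800, plus) hold ATTGG without a TGACG at that spacing. The same is true of H2-T22 and Tapbp, which are not printed. In H2-Q4 the letters TGACG stand just after ATTGG, in lower case.
H2-K1: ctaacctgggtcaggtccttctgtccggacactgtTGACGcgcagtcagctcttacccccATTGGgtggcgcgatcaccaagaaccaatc
H2-D1: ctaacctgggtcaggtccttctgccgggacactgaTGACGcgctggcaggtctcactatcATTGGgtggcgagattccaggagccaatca
H2-Q7: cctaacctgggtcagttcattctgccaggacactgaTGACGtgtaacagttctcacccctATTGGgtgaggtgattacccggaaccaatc
B2m: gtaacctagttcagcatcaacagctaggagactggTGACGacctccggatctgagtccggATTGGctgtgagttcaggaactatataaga
H2-Q4: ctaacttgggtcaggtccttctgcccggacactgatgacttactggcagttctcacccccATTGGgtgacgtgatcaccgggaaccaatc
H2-Q6: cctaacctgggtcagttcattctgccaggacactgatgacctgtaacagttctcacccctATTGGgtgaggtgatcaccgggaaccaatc
The H2 windows are near copies of each other, while B2m lies on another chromosome. Searched on both strands, the spaced pair occurs in 66 of 32851 promoters of the table (0.201%), 4 of them on the list. ATTGG at any place occurs in 37.4% and TGACG in 20.8%. The letters and the spacing were chosen after these sequences were seen, and a match is a description of the letters only. H2-Q4, without the pair, rose by 1.59, and H2-Q7 and B2m, with it, by 0.84 and 0.58. Without K36M or K36I the call of B2m was lost (limma adjusted p = 0.0668 and 0.0562).

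In these genes the rise was shared by both lines. H2-K1, a classical heavy chain, was at 6723 normalised reads in K36M and 7920 in K36I, against 1470 in WT, 1452 in K36A, 1907 in K36L and 1170 in K36R. The classes were far apart, with a difference of 2.21 (SE 0.17, limma adjusted p = 0.000786). H2-D1 was at 5679 and 5166 against 1403 to 2108 (1.60, SE 0.16), and the nonclassical H2-T23 at 988 and 1145 against 215 to 381 (1.63, SE 0.18). H2-Q4 rose by 1.59 (865 and 889 against 158 to 305 normalised reads) and H2-Q7 by 0.84 (171 and 169 against 48.4 to 71.1). H2 genes are near-identical copies, so how reads were split between them is uncertain.

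B2m, the most abundant gene of the list, was at 22366 in K36M and 22045 in K36I, against 15551 in WT, 13261 in K36A, 14387 in K36L and 16348 in K36R. The shift was small but clear of all 4 lines (0.58, SE 0.09). Nlrc5 itself was at 1190 in K36M and 1478 in K36I, against 127 in WT, 102 in K36A, 135 in K36L and 192 in K36R, a difference of 2.56 (SE 0.17, limma adjusted p = 0.000450). Of the peptide-handling genes, Tap2 rose by 1.53, Psmb9 by 1.35, Tap1 by 1.13 and Tapbp by 0.81. Exons of Psmb9 and Tap1 overlap on opposite strands, and the strand of counting is not given, so their reads cannot be separated. Smaller rises in H2-Q6 (0.70), H2-T22 (0.53) and Cd274, which encodes the checkpoint ligand PD-L1 (0.47), were less stable. Without K36M the calls of B2m (limma adjusted p = 0.0668), Tapbp (0.0870), H2-Q6 (0.173), H2-T22 (0.277) and Cd274 (0.170) were lost, and without K36I the same 5 were lost, at 0.0562, 0.0528, 0.131, 0.0608 and 0.143. Leaving out WT or K36A also ended the calls of H2-Q6 (0.0782 and 0.0621), H2-T22 (0.0809 and 0.0599) and Cd274 (0.0809 and 0.0620), and leaving out K36R those of H2-Q6 (0.0576) and H2-T22 (0.0730), the latter also without K36L (0.0606). The members named here beyond Nlrc5, H2-K1, H2-T23 and H2-D1 were chosen after their values were seen.

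**Figure D3:**
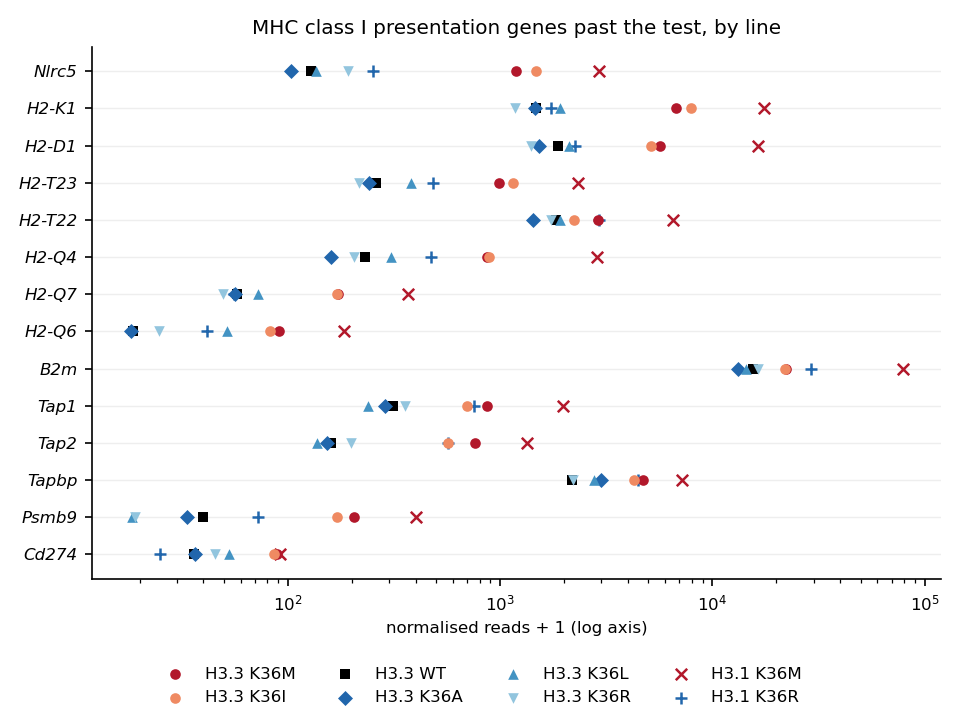
Normalised reads plus 1 on a log axis for the 14 MHC class I presentation genes that passed the test, in the 6 H3.3 lines and the 2 H3.1 lines (1 library each). H3.3 K36M and K36I lie above the other 4 H3.3 lines in all 14 genes, and H3.1 K36M lies above H3.1 K36R in all 14.

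Interferon-stimulated genes included several that rose. Of 32 on the list 21 were kept, and 6 (28.6%) rose and 1 fell, with a median of 0.35. Bst2, which tethers budding virus particles, was at 580 and 430 normalised reads against 112 to 150 in the other 4 (1.34, SE 0.14), and Trim30a, an interferon-induced ubiquitin ligase gene, at 493 and 231 against 9.50 to 104 (1.63). Gbp2, an interferon-induced GTPase gene (0.87), and Parp14, an ADP-ribosyltransferase gene (0.74), rose too. Without K36M, Trim30a (limma adjusted p = 0.161), Gbp2 (0.235) and Parp14 (0.175) did not pass. Without K36I the same was true of Gbp2 (0.141) and Parp14 (0.104), without K36L of Gbp2 (0.0996) and Parp14 (0.0691), and without WT (0.102) or K36A (0.0788) of Gbp2.

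All 6 Schlafen genes that were kept, of 8 on the list, rose (median 1.53), and they are neighbours on chromosome 11 from 82951349 to 83215154. Slfn5 was at 1205 and 592 normalised reads against 9.50 to 25.3 (3.17, SE 0.25), and Slfn3 at 366 and 598 against 5.70 to 81.8 (2.09, SE 0.34). Slfn10-ps rose by 0.96, Slfn8 by 0.72 and Slfn9 by 0.60. The number of them that passed ran from 3 (without K36I) to 6 over the alternatives. Slfn3 did not pass without K36I (limma adjusted p = 0.0665), Slfn9 without K36M (0.0711) or K36I (0.111), and Slfn8 without K36M (0.177), K36I (0.0824), WT (0.0570) or K36A (0.0502). Slfn8 and Slfn9 were named after their values were seen.

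Cytokines and their receptors moved both ways, with 7 of 25 kept genes higher (4 without K36M) and 3 lower (median 0.03). Il33, an alarmin released from damaged cells, was at 1441 in K36M and 457 in K36I against 17.2 to 62.4 (2.87, SE 0.38), and its receptor gene Il1rl1 was at 3128 and 3776 against 290 to 1177 (2.50, SE 0.46). Ligand and receptor thus rose in both lines, each without overlap of the classes. Lif, a cytokine of the interleukin-6 family, rose by 1.67 (SE 0.15) and Csf1, the macrophage growth factor, by 1.25 (SE 0.09). Il1rn, the interleukin-1 receptor antagonist, was at 471 and 240 against 5545 in WT, 6417 in K36A, 1209 in K36L and 3677 in K36R (-3.02, SE 0.62). Without K36M or K36I, Il1rl1 (limma adjusted p = 0.0722 and 0.0838) and Il1rn (0.0760 and 0.120) did not pass. The complement proteases of the classical pathway C1s (2.67), C1ra (1.52) and C1rb (1.23) rose, within 4 of 13 kept complement genes higher (1 without K36M) and 1 lower. C1ra did not pass without K36M (limma adjusted p = 0.0798), nor C1rb without K36M (0.101) or K36I (0.0528).

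**Figure D4:**
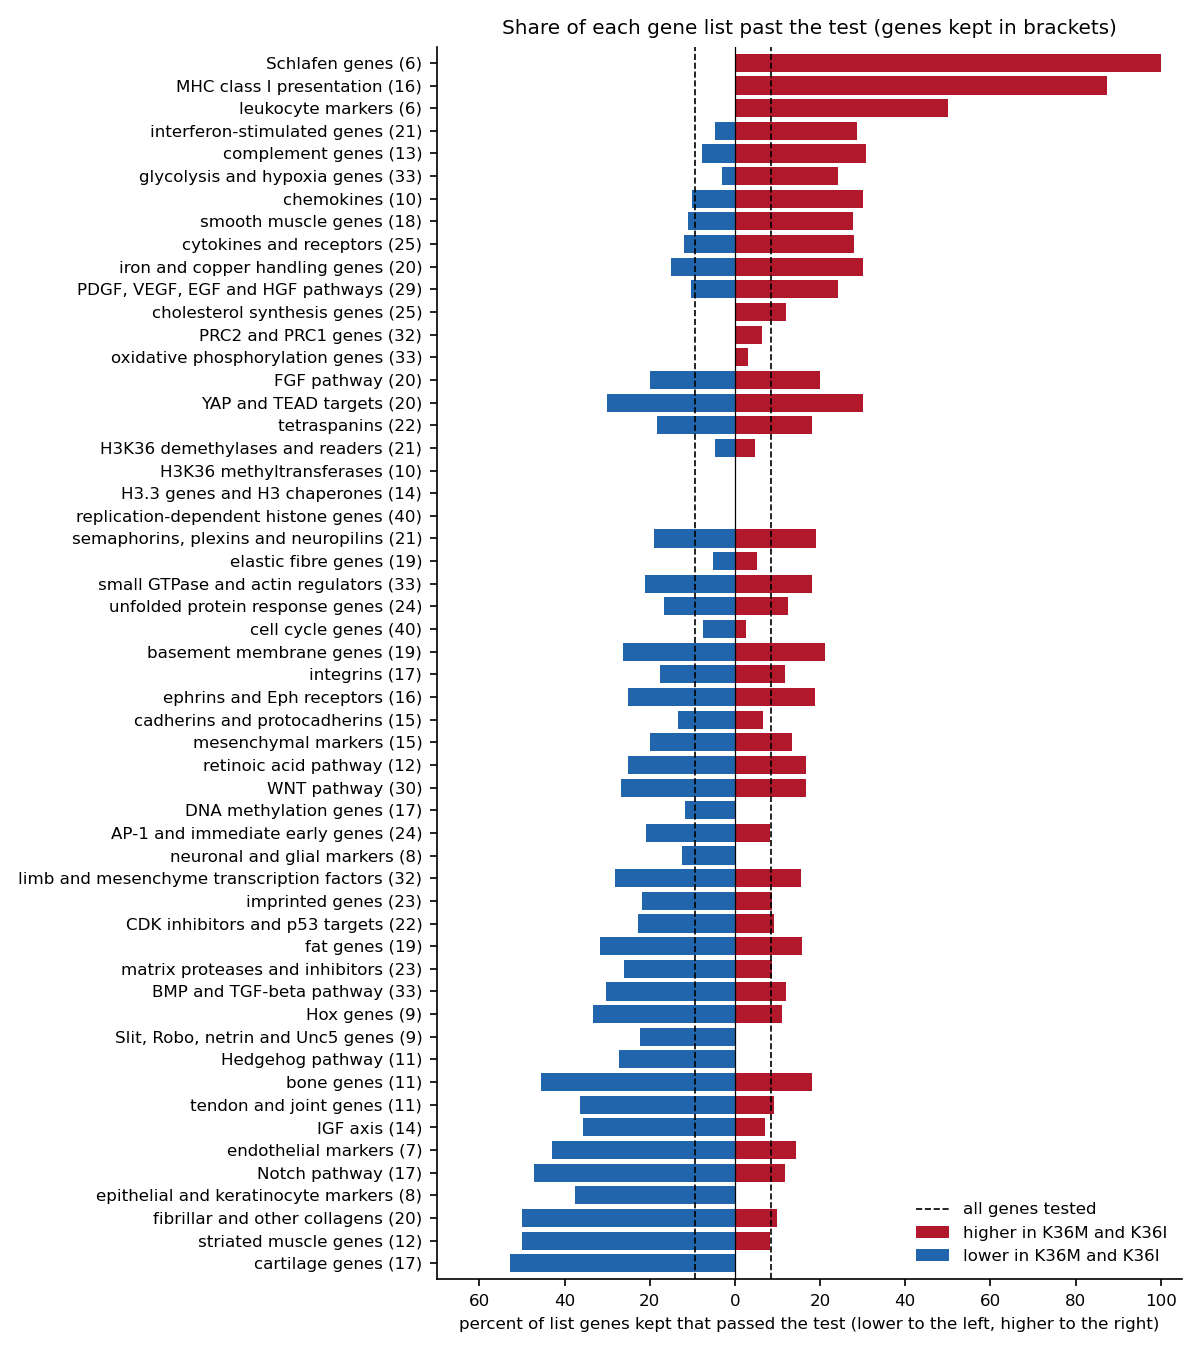
Percent of the kept genes of each list (their number in brackets) that passed the test, lower in K36M and K36I to the left and higher to the right, with dashed lines at the shares over all genes tested (9.37% lower, 8.41% higher). MHC class I and Schlafen genes stand at the top, and cartilage, striated muscle and collagen genes at the bottom, of the lists with at least 6 genes kept.

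Cartilage genes fell and none rose. Of 25 genes on the list, 23 were in the table and 17 kept, of which 9 (52.9%) were lower and 0 higher, with a median of -1.79. Sox9, the lead transcription factor of chondrocytes, was at 561 in K36M and 1045 in K36I against 3037 to 4423 normalised reads in the other 4 (-2.05, SE 0.24). Col2a1, the main cartilage collagen, was at 8720 and 12710 against 40791 to 79997 (-2.42, SE 0.27), and Col11a1, its partner in the fibril, at 5699 and 4043 against 26764 to 78965 (-3.52, SE 0.43). Both lines were low for the activator genes and for the fibril genes alike. Pth1r, the receptor that paces growth plate chondrocytes, fell by 2.43 (SE 0.33), and the cartilage matrix genes Matn3 (-1.58), Matn4 (-1.32) and Fmod (-1.79) fell too. Col9a1, at 459 and 552 against 652 in K36R, 870 in WT, 3899 in K36L and 10553 in K36A, did not pass (limma adjusted p = 0.233), with the comparison lines widely spread. The number lower ran from 6 (without K36M) to 13 over the alternatives. Matn4 did not pass without K36M (limma adjusted p = 0.109), K36I (0.146) or K36L (0.0623). Sox9, Col2a1, Matn3, Matn4 and Col9a1 were named after their values were seen.

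Genes of bone, fat and tendon fell more often than they rose, with exceptions of large size. Of 11 kept bone genes 5 fell (2 without K36M) and 2 rose. Spp1, which encodes osteopontin, a secreted phosphoprotein of bone and of inflamed tissue, was at 106416 and 111860 normalised reads in K36M and K36I, against 9447 in WT, 17575 in K36A, 15527 in K36L and 6212 in K36R. It was the most abundant gene among those higher by at least 3 (difference 3.26, SE 0.39). Alpl, the alkaline phosphatase of mineralising cells, went the other way (-1.93, SE 0.39), beside Tnfrsf11b above. Of 19 kept fat genes 6 fell and 3 rose (0 without K36I). Cebpa, a master transcription factor of adipocytes, was at 157 and 153 against 787 to 1559 (-2.31, SE 0.23), and G0s2, an inhibitor of the lipase ATGL, at 24.8 and 17.0 against 984 to 1863 (-3.85, SE 0.23). Zfp423, a determinant of preadipocytes (-1.90), and Dgat2, which completes triglyceride synthesis (-1.37), fell as well. Of 11 kept tendon and joint genes 4 fell, among them Tnmd, which encodes tenomodulin (-3.11, SE 0.36), and 1 rose, the tendon transcription factor Scx (1.51, SE 0.31). Without K36M or K36I, Alpl (limma adjusted p = 0.0722 and 0.119), Zfp423 (0.126 and 0.103), Dgat2 (0.0954 and 0.186) and Scx (0.0653 and 0.127) did not pass. Zfp423 (0.0506) and Scx (0.0511) also did not pass without WT, nor Dgat2 without K36L (0.0663) or K36R (0.0541). With voom weights the calls of Alpl, Zfp423 and Dgat2 were lost.

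Striated and smooth muscle genes were listed apart. Of 12 kept striated muscle genes 6 were lower (3 without K36M) and 1 higher, with a median of -0.66. Sorbs2, an adaptor of the sarcomere and of stress fibres, was at 1526 and 1815 against 17468 to 34200 normalised reads (-3.77, SE 0.24), and Tnni1, the slow skeletal troponin I, at 26.7 and 42.5 against 550 to 986 (-2.60, SE 0.22). Ryr1, the calcium release channel of skeletal muscle, was the 1 that rose (142 and 157 against 7.79 to 13.3). Of 18 kept smooth muscle genes 5 rose and 2 fell (1 and 1 without K36M), with a median of 0.17; the difference between the lists was not tested. Ankrd1, a mechanosensitive nuclear protein, was at 3362 and 4108 against 95.9 to 651 (3.11, SE 0.48), and Actg2, the enteric smooth muscle actin, at 2007 and 661 against 69.2 to 336 (2.43, SE 0.50). Synpo2 rose by 1.13, and Csrp1, a LIM protein of smooth muscle, fell by 1.09. Ankrd1 did not pass without K36I (limma adjusted p = 0.0558), Synpo2 without K36M (0.0626), and Actg2 without K36M (0.124) or WT (0.0506).

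Matrix genes changed by family. Of 20 kept collagen genes outside the basement membrane list 10 fell and 2 rose, with a median of -0.81. Col8a2, a short-chain collagen, was at 1074 and 1518 against 6457 to 8248 (-2.40, SE 0.15), and Col28a1 at 42.0 and 705 against 2508 to 5162 (-3.43, SE 0.65). Col1a2 fell by 0.75 (SE 0.18), while Col1a1, its partner in type I collagen, did not pass (-0.16, limma adjusted p = 0.528), with 40995 and 43093 normalised reads inside the range of the other 4 (40572 to 58755). The number of collagens lower was 3 without K36M. Col28a1 did not pass with WT and K36R (limma adjusted p = 0.0753) or K36A and K36L (0.0532) alone as comparison lines. Col1a2 did not pass without K36M (limma adjusted p = 0.196), K36I (0.109) or WT (0.0789).

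Basement membrane genes turned over within the laminin family. Lama5, the laminin alpha chain of epithelial basement membranes, was at 8052 in K36M and 9825 in K36I against 628 in WT, 1203 in K36A, 1650 in K36L and 664 in K36R (3.06, SE 0.36, limma adjusted p = 0.00284). Npnt, an integrin ligand of basement membranes, was at 1496 and 513 against 11.5 to 76.0 (3.03, SE 0.41), and Lamb1 rose by 1.94 (SE 0.32). Lamb3, a chain of the laminin that anchors epidermis, was at 600 and 266 against 2218 to 4041 (-2.72, SE 0.32). In all 4 of 19 kept members rose (2 without K36M) and 5 fell. Among 19 elastic fibre genes Eln fell and Ltbp1, which stores latent TGF-beta in the matrix, rose (25190 and 24452 against 5926 to 9661, difference 1.81, SE 0.19), and the other 17 did not pass. Fn1, fibronectin, was at 54928 and 73802 against 111298 to 161384 (-1.20, SE 0.20). Of 23 matrix proteases and inhibitors 6 (26.1%) fell and 2 (8.7%) rose, with Adamts6 (2.34, SE 0.39) and Serpine2 (-2.22, SE 0.56) on either side. Over all genes kept the shares were 9.37% and 8.41%. Without K36M, Lamb1 (limma adjusted p = 0.0636), Fn1 (0.0776) and Adamts6 (0.0775) did not pass. Without K36I, Lamb1 (0.0606) and Serpine2 (0.194) did not pass, and Serpine2 was also lost without WT (0.0843), K36L (0.0784) or K36R (0.0652).

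The Notch pathway, in which a ligand on 1 cell binds a receptor on the next, whose cleavage by proteases frees a partner of the DNA-binding protein RBPJ, had 8 of 17 kept genes lower (47.1%) and 2 higher, with a median of -0.39. The ligand gene Jag1 was at 2539 and 1439 normalised reads against 13449 in WT, 13892 in K36A, 12930 in K36L and 19995 in K36R (-2.88, SE 0.25, limma adjusted p = 0.00114). The receptor genes Notch1 (655 and 1217 against 3437 to 4390, difference -1.95, SE 0.21) and Notch2 (-0.54) fell, and so did the receptor-modifying Lfng (-1.38) and the coactivator gene Maml2 (-1.38). The target genes Hey1 (-2.10) and Hes1 (-0.90) were lower. Rbpj itself rose (7590 and 8334 against 3232 to 3910, difference 1.16, SE 0.09), as did the ligand gene Jag2 (0.94). The number lower ran from 5 (without K36I) to 8 over the alternatives. Without K36M, K36I or WT, Hey1 (limma adjusted p = 0.130, 0.130 and 0.0625) and Jag2 (0.221, 0.0976 and 0.0883) did not pass, Jag2 also not without K36A (0.0537). Hes1 did not pass without K36I (0.212), WT (0.0915), K36A (0.0719) or K36R (0.0691). Hey1 was also lost with voom weights. Notch2, Lfng, Hes1, Rbpj and Jag2 were named after their values were seen.

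In the WNT pathway 8 of 30 kept genes fell and 5 rose (median -0.08). Those that fell include potentiators and receptors, and those that rose include ligands. Rspo2, an R-spondin that amplifies WNT signals, was at 1559 and 1153 against 9178 to 17885 (-3.14, SE 0.32), and its receptor gene Lgr4 at 3757 and 5646 against 25600 to 30608 (-2.56, SE 0.16). Tcf7, a nuclear effector, fell by 2.05 (SE 0.37), and Ror1, a receptor of noncanonical ligands, by 1.95 (SE 0.28). The ligand genes Wnt7a (315 and 168 against 3.80 to 11.5, difference 1.99, SE 0.19) and Wnt7b (323 and 229 against 11.2 to 29.2, difference 1.90, SE 0.16) rose from low levels, and both were kept only through K36M and K36I. Tcf7 did not pass without K36M (limma adjusted p = 0.0981). Ror1 and Wnt7b were named after their values were seen.

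In the BMP and TGF-beta pathway 10 of 33 kept members were lower and 4 higher (median -0.34), or 6 and 1 without K36M. In the main fit that is 30.3% lower and 12.1% higher, beside 9.37% and 8.41% of all genes kept. The antagonist gene Grem1 was at 7714 and 7109 against 556 to 2406 (2.32, SE 0.47), whereas the antagonist gene Fst was at 375 and 476 against 1261 to 1727 (-1.53, SE 0.14). Tgfb2, a ligand, fell by 2.07 (SE 0.24). Smad6, an inhibitory SMAD that BMP signals induce, fell by 1.60 (SE 0.20), as did the BMP target genes Id3 (-1.23) and Id1 (-0.68), while the TGF-beta effector gene Smad3 rose by 1.10 (SE 0.11). Grem1 did not pass without K36M (limma adjusted p = 0.111) or K36I (0.0905). Id1 did not pass with WT and K36R alone as comparison lines (0.0588). Id1, Id3 and Smad3 were named after their values were seen.

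Growth factor axes changed in both directions, in ligands, receptors and modulators. Of 29 kept genes of the PDGF, VEGF, EGF and HGF pathways, 7 (24.1%) rose and 3 (10.3%) fell. Fgfr3 (387 and 294 against 1613 to 3153, difference -2.41, SE 0.25) and the decoy receptor gene Fgfrl1 (-2.05, SE 0.13) fell, and Dusp4 (2.65, SE 0.43) and Spry1 (1.76, SE 0.31), feedback inhibitors of the ERK pathway, rose, among 4 higher and 4 lower of 20 kept FGF genes (0 and 2 without K36I). Hgf was at 958 and 923 against 35.1 to 241 (2.28, SE 0.37) and its receptor gene Met at 11786 and 16936 against 2832 to 4916 (1.87, SE 0.24). Ligand and receptor of this pair both rose without overlap of the classes. Angptl4, a lipoprotein lipase inhibitor, rose by 3.03 (SE 0.53) and the receptor-like gene Pdgfrl fell by 3.02 (SE 0.15). In the IGF axis 5 of 14 kept genes fell (2 without K36M) and 1 rose: Igfbp4, a binding protein that holds IGF away from its receptor, was at 23844 and 32041 against 2515 to 7596 (2.70, SE 0.39), while Pappa and Pappa2 (-2.78, SE 0.46), the proteases that cleave such binding proteins, and Igf1 (-2.52, SE 0.64) fell. Without K36M, Dusp4 (limma adjusted p = 0.0571), Hgf (0.0634), Pappa2 (0.0752) and Igf1 (0.156) did not pass. Without K36I, Dusp4 (0.0606), Spry1 (0.0869), Hgf (0.0549), Angptl4 (0.0800) and Igf1 (0.170) did not. Igf1 was also lost without WT (0.0756), K36L (0.0731) or K36R (0.0608), and with voom weights. Met was named after its values were seen.

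Of 12 kept retinoic acid genes 3 fell and 2 rose. Stra6, the cellular uptake receptor for retinol, was at 408 and 692 against 3.72 to 36.1 (2.82, SE 0.26), and Rdh10, which starts retinoic acid synthesis, at 5796 and 6268 against 1264 to 2172 (1.74, SE 0.22). Cyp26b1, which degrades retinoic acid, was at 142 and 333 against 1456 to 3901 (-2.79, SE 0.40), and Dhrs3, which returns retinal to retinol, fell by 2.18 (SE 0.42). The classes did not overlap in any of these 4 genes. Dhrs3 did not pass without K36M (limma adjusted p = 0.106) or K36I (0.0647). In the Hedgehog pathway 3 of 11 kept genes fell (1 without K36M), led by the coreceptor gene Boc (841 and 845 against 4680 to 6833, difference -2.53, SE 0.14). The axon guidance receptor gene Unc5c, of another list, was at 697 and 1392 against 7926 to 13861 (-3.35, SE 0.30).

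Transcription factors of limb and mesenchyme fell in 9 of 32 kept genes (3 without K36M) and rose in 5. Epas1, which encodes HIF-2alpha, was at 8.59 and 11.9 normalised reads against 1788 in WT, 329 in K36A, 1647 in K36L and 1077 in K36R (-3.64, SE 0.56). Sall1 (-1.91, SE 0.13), Lhx9 (-1.79, SE 0.30) and Tbx2 (-1.78, SE 0.42) fell as well, and Twist1 rose by 0.46. Of 39 Hox genes 9 were kept. Hoxb9 was at 1191 and 325 against 1.86 in WT, 149 in K36A, 5.85 in K36L and 1.90 in K36R (2.87, SE 0.63), and Hoxa2 (-0.77), Hoxa3 (-0.65) and Hoxa4 (-0.72) fell. Without K36M, Epas1 (limma adjusted p = 0.0557), Lhx9 (0.0751), Tbx2 (0.155), Twist1 (0.190), Hoxb9 (0.158), Hoxa3 (0.0940) and Hoxa4 (0.0903) did not pass. Without K36I, Tbx2 (0.129), Twist1 (0.0559), Hoxa3 (0.114) and Hoxa4 (0.0752) did not. Without WT, Tbx2 (0.0709), Twist1 (0.0711) and Hoxb9 (0.0591) were lost, without K36L Twist1 (0.0655) and Hoxb9 (0.0569), without K36A Twist1 (0.0549), and without K36R Tbx2 (0.0541).

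The genes that place or read H3K36 methylation changed little in expression. Of the 10 H3K36 methyltransferase genes kept, 0 passed in limma (median 0.02), and at most 2 higher or 1 lower passed under any alternative, voom among them. At an unadjusted p under 0.05 there were 5 (2 higher, 3 lower), beside 4710 of all 14151 genes kept in either direction. Setd2 was at 5832 in K36M and 6236 in K36I against 6588 to 7252 normalised reads (-0.17, limma adjusted p = 0.147), and Whsc1, which encodes NSD2, at 14534 and 15655 against 10829 to 13347 (0.33, limma adjusted p = 0.0535). Nsd1 (0.26, adjusted p = 0.168), Whsc1l1, which encodes NSD3 (-0.21), and Ash1l (-0.13) did not pass either. Whsc1 did pass as higher in some alternatives. These were library medians set equal, array weights, WT and K36R alone as comparison lines, and the fit without K36A. Nsd1 passed as higher without K36A. Of 21 demethylases and readers of the mark, the mismatch repair gene Msh6, whose product binds it, rose by 0.39 and the demethylase gene Kdm4c fell by 0.31. Msh6 did not pass without K36M (limma adjusted p = 0.0503) or K36I (0.0790), nor Kdm4c without K36M (0.127), K36I (0.160), WT (0.0787) or K36L (0.0656).

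Genes of the opposing Polycomb system also moved little. Of 32 kept PRC2 and PRC1 genes 2 rose and 0 fell in limma, with 2 lower at an unadjusted p under 0.05 and at most 1 lower under any alternative. Pcgf5, a subunit of variant PRC1 complexes, was at 3675 and 3694 against 846 to 1410 (1.58, SE 0.20), and Pcgf1, of the same family, rose by 0.48. The PRC2 core genes Ezh2 (-0.26, limma adjusted p = 0.0908), Eed (0.00) and Suz12 (0.32) did not pass. Ezh2 did pass as lower without K36L. The DNA demethylase genes Tet1 (240 and 212 against 444 to 575, difference -0.94, SE 0.12) and Tet2 (-0.50) fell, and 0 of 17 DNA methylation genes rose, with 2 at an unadjusted p under 0.05 and at most 1 under any alternative. Pcgf1 did not pass without K36M (limma adjusted p = 0.107), K36I (0.137), WT (0.0609) or, at the threshold, K36L, nor Tet2 without K36M (0.182), K36I (0.0759), WT (0.0708) or K36L (0.0626).

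The cells' own H3.3 genes H3f3a (8170 in K36M and 7441 in K36I against 7720 to 9361) and H3f3b (54032 and 76221 against 72642 to 103244) did not pass, with differences of -0.11 (limma adjusted p = 0.468) and -0.36 (0.227). Whether reads of the transgene entered these counts is not given in the sources used here. Of the 14 genes for H3.3 and H3 chaperones 0 passed in limma, with 1 higher and 1 lower at an unadjusted p under 0.05 and at most 1 under any alternative. Of 40 replication-dependent histone genes 0 passed in limma, with 1 lower at an unadjusted p under 0.05 and at most 1 under any alternative. Hist1h1a was at 4833 in K36M and 11701 in K36I against 10539 to 16444, so the 2 lines differed from each other more than K36I did from the rest.

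Imprinted genes held a neighbouring group that fell. In the cluster on chromosome 12 the noncoding RNA genes Meg3 (972 and 804 against 1760 to 3351, difference -1.30, SE 0.26), Rian (-1.23, SE 0.24) and Mirg (-0.95, SE 0.21) and the retrotransposon-derived Rtl1 (-0.97, SE 0.20) were lower. H19 was at 5.73 and 5.10 against 145 in WT, 1696 in K36A, 600 in K36L and 217 in K36R (-2.79, SE 0.73). Its call was lost with voom weights. Peg3, a zinc finger gene of another cluster, was at 911 and 1138 against 13 to 192 (2.42, SE 0.45). Of the kept imprinted genes 8.7% rose and 21.7% fell, beside 8.41% and 9.37% of all genes kept. In all 2 of 23 kept imprinted genes rose and 5 fell (0 without K36I). Without K36M, Meg3 (limma adjusted p = 0.0818), Mirg (0.0570), H19 (0.177) and Peg3 (0.0751) did not pass. Without K36I, Meg3 (0.113), Rian (0.101), Rtl1 (0.121), Mirg (0.154), H19 (0.172) and Peg3 (0.0900) did not, and without K36L the same was true of H19 (0.0902) and Mirg (0.0546).

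Proliferation genes changed in few members and by small amounts. Of 40 cell cycle genes 3 fell and 1 rose (median -0.02). Ccna2, cyclin A, was at 13552 and 13685 against 17088 to 17896 (-0.36, SE 0.06), Rrm2, a ribonucleotide reductase subunit, fell by 0.37 and the transcription factor gene Mybl2 by 0.34, and the checkpoint kinase gene Bub1 rose by 0.34. Without K36M, Ccna2 (limma adjusted p = 0.0750), Rrm2 (0.105), Mybl2 (0.152) and Bub1 (0.102) did not pass. Without K36I they did not pass either (0.0610, 0.131, 0.0975 and 0.174). Without WT, Rrm2 (0.0544), Mybl2 (0.0638) and Bub1 (0.0586) were lost, and without K36L Rrm2 (0.0548) and Bub1 (0.0655).

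Of 22 kept CDK inhibitors and p53 targets 5 were lower (2 without K36I) and 2 higher, with a median of 0.06. In the main fit that is 22.7% lower and 9.09% higher, beside 9.37% and 8.41% of all genes kept. Perp, a desmosomal apoptosis effector, was at 1873 and 1560 against 6172 to 8783 (-2.03, SE 0.18), Phlda3, an AKT inhibitor, at 5419 and 4804 against 14308 to 17664 (-1.63, SE 0.11), and the death receptor gene Fas at 486 and 219 against 952 to 1986 (-1.74, SE 0.32). Fas did not pass without K36I (limma adjusted p = 0.0807). Of 24 immediate early genes Klf4 (-1.12, SE 0.07) and Fos (-1.10, SE 0.24) were among 5 lower (20.8%), and Fosl1, the FOS family member FRA-1, was among 2 higher (8.33%), at 969 and 1021 against 329 to 486 (difference 1.09, SE 0.14). Fos did not pass without WT (limma adjusted p = 0.0510).

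Glycolysis and hypoxia genes rose in 8 of 33 (4 without K36M) and fell in 1 (Epas1, above), with a median of 0.05. Pfkfb4, which sets the level of a glycolytic activator, was at 1892 and 2291 against 761 to 907 (1.22, SE 0.11), the enolase gene Eno2 at 763 and 766 against 276 to 397 (1.0, SE 0.12), and the phosphofructokinase gene Pfkp at 18748 and 13025 against 8317 to 9525 (0.82, SE 0.14). Metal-handling genes rose in 6 of 20 (2 without K36I) and fell in 3. The metalloreductase genes Steap1 (4006 and 2479 against 477 to 854, difference 2.02, SE 0.24) and Steap2 (1.41, SE 0.19) rose, and so did Heph, a copper ferroxidase gene for iron export (2.90, SE 0.64). Heph did not pass without K36M (limma adjusted p = 0.136) or K36I (0.108), nor Pfkp with WT and K36R alone as comparison lines (0.0608).

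Surface and guidance genes added members of both directions. Itgb7, an integrin beta chain of lymphocytes, was at 1117 and 2484 against 217 to 406 (2.10, SE 0.31), and Itga4, its usual partner, was at 3.82 and 0.00 against 59.4 to 150 (-1.45, SE 0.22). The partner chains thus moved in opposite directions. Plxnb1, a semaphorin receptor gene, was at 3.82 and 31.5 against 373 to 871 (-2.68, SE 0.31), the Eph receptor gene Ephb3 at 1100 and 1018 against 2709 to 3000 (-1.33, SE 0.08), and the ephrin gene Efnb1 at 711 and 525 against 1458 to 2184 (-1.37, SE 0.17). Hbegf, an EGF receptor ligand, was at 2962 and 3095 against 594 to 897 (1.85, SE 0.16), and Tek, the angiopoietin receptor, at 284 and 300 against 1489 to 3228 (-2.47, SE 0.30). Trp63, which encodes the epithelial transcription factor p63, was at 7.63 and 34 against 258 to 430 (-2.14, SE 0.21). Itga4 did not pass without K36I (limma adjusted p = 0.0549).

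A small set of genes went from silent to expressed or the reverse. Taking under 10 normalised reads in every line of 1 class as silent and 100 or more in every line of the other as expressed, 12 genes were gained in K36M and K36I and 10 lost. These were chosen by their values, so the counts are descriptions. Gained genes included Gpnmb, a transmembrane glycoprotein gene of macrophages, osteoclasts and pigment cells (351 and 296 against 0.00 to 5.75), and Cd33, a myeloid sialic acid receptor gene (157 and 282 against 0.00 in all 4). They further included Add2, a membrane skeleton gene (774 and 396 against 1.92 to 9.74), F13a1, a clotting factor subunit gene (480 and 113 against 1.95 to 7.44), Fat2, an atypical cadherin gene (133 and 533 against 0.00 to 3.80), and Apob. Slco4a1, Epha5, Sh2d1b1, Arhgap36, AW551984 and Gm2381 complete the 12, of which 6 passed the filter.

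Lost genes included the ETS factor genes Ehf (1.91 and 0.00 against 139 to 439) and Erg (0.00 and 3.40 against 114 to 377), and Sox8, a relative of Sox9 (1.91 and 3.40 against 171 to 241). Zcchc5, a retrotransposon-derived gene, was at 0.00 in both lines and at 352 to 1167 in the other 4. Cldn19, a tight junction claudin gene, Spink5, a protease inhibitor gene of the skin, Cytl1, Gm5886 and H19 were lost too, and AK145379 is a further row with the same reads as H19. In the H3.1 libraries, which took no part in the choice, all 12 gained genes were higher in K36M than in K36R, 8 of them at 100 or more, and 10 of the 12 stayed under 10 in K36R. All 10 lost genes were lower in H3.1 K36M.

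K36M and K36I differed by at least 1 in 165 of the 14151 genes (1.17%). Among these were 32 of the higher genes (2.69%) and 26 of the lower (1.96%), though the test favours genes in which the 2 lines agree. The same count was not made for other pairs of lines. On the first 2 principal components K36M lay at 46.3 and 10.8 and K36I at 42.8 and -8.26. There K36A lay at -15.8 and -15.6 and K36L at -20.2 and -14.1. K36M lay farther from the other 4 lines than K36I did in 697 of the higher genes (58.6%) and 670 of the lower (50.5%). Larger gaps included Sprr2a2, with K36M far higher, and Hoxb9 (1191 against 325), Col28a1 (42.0 against 705), Pkp1, a desmosome plaque gene (50.6 against 395), and Pcdh1, a protocadherin gene (9.54 against 138). With 1 library each, these gaps have no test.

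Among the 4 comparison lines, the nearest to K36M and K36I was seldom WT. Of the 350 genes higher by at least 1, the nearest line was K36A in 118 (33.7%), K36L in 112 (32.0%), K36R in 85 (24.3%) and WT in 35 (10.0%). Over all genes kept the highest of the 4 was K36A in 26.1%, K36L in 24%, K36R in 28.9% and WT in 21.1%. Of the 424 genes lower by at least 1, the nearest was K36A in 149 (35.1%), K36R in 128 (30.2%), K36L in 92 (21.7%) and WT in 55 (13%), beside 25.4%, 29.1%, 23.2% and 22.3% of all genes in which each was the lowest of the 4. K36A also had the largest share of Rn45s reads, whose part in this was not tested.

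Several genes were set part way in 1 comparison line. Heph was at 972 and 832 in K36M and K36I, 0.00 in WT, 247 in K36A, 70.2 in K36L and 9.50 in K36R, and Pcdh11x was likewise higher in K36A (833) and K36L (394) than in WT (16.7) and K36R (17.1). Nxf3, an RNA export factor gene, was at 490 and 703, with K36L at 123, K36A at 52.7, WT at 5.58 and K36R at 0.00. In these 3 genes K36A and K36L lay between the 2 mutants and the pair of WT and K36R. Sox6, Serpinb6b, a serine protease inhibitor gene (865 in K36R against 158 to 355 in the other comparison lines, 2103 and 2417 in K36M and K36I), and Col27a1 (1140 in K36R against 1850 to 5175, 502 and 368) were part way in K36R. Ezr, which encodes the membrane linker ezrin, was at 2234 and 1604, with 332 in WT, 286 in K36R, 102 in K36A and 79.9 in K36L. Without K36M or K36I, Heph (limma adjusted p = 0.136 and 0.108), Nxf3 (0.0751 and 0.101), Pcdh11x (0.197 and 0.171), Sox6 (0.0699 and 0.0732), Serpinb6b (0.0890 and 0.0969) and Col27a1 (0.124 and 0.164) did not pass. Pcdh11x was also lost without WT (0.0861), K36L (0.0613) or K36R (0.0659), and Col27a1 without WT (0.0622) or K36L (0.0679).

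Genes that fell were longer than those that rose. The genomic span from start to end was known for 12347 of the genes kept (87.3%), from GENCODE, with a median of 23.1 kb. The median was 24.5 kb for higher genes, 43.6 kb for lower genes and 78.9 kb for those lower by at least 2. Of genes under 10 kb 6.33% were lower, of those from 10 to 30 kb 7.17%, from 30 to 100 kb 11%, and over 100 kb 20.6%, while the share higher ran only from 7.72% to 9.20%. The H3.1 pair, whose libraries are separate, had 2.38%, 1.78%, 3.3% and 9.06% of genes lower by at least 1 in the same span classes, and 3.4%, 3.61%, 3.87% and 5.13% higher by at least 1. Lower genes also had a higher median level in the other 4 lines (2143 normalised reads, against 1450 for all genes and 1040 for higher genes) and longer exons (5187 bases against 4391), and the part of level and exon length in this was not tested.

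The H3.1 pair gives the same substitution in another histone variant, with K36R in place of 4 comparison lines and 1 library on each side. Of the 1190 genes higher in the H3.3 lines 1044 (87.7%) were also higher in H3.1 K36M than in H3.1 K36R, and of the 1326 lower genes 1143 (86.2%) were also lower, while over all genes kept 49.1% were higher. Among genes that differed by at least 2 in the H3.3 lines the direction was shared by 84 of 87 (96.6%) and 123 of 124 (99.2%). In the H3.1 pair 3.72% of all genes were at least 1 higher and 3.12% at least 1 lower. Of the higher genes 311 (26.1%) were at least 1 higher there and 1 at least 1 lower, and of the lower genes 294 (22.2%) were at least 1 lower and 0 at least 1 higher. The median H3.1 difference was 0.50 for higher genes and -0.42 for lower genes, against 0.66 and -0.70 in the H3.3 lines.

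**Figure D5:**
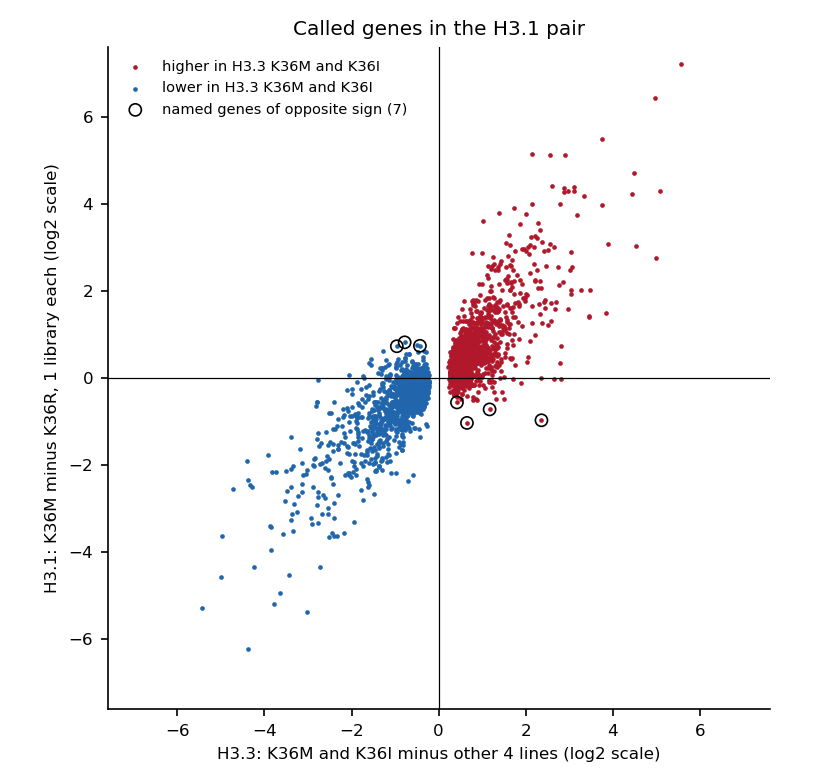
Difference between H3.1 K36M and H3.1 K36R (1 library each) against the difference between H3.3 K36M and K36I and the other 4 H3.3 lines, both on the log2 scale, 1 point per gene that passed the test in the H3.3 lines, with circles around 7 named genes of opposite sign. Most of the 1190 higher genes (red) lie above 0 and most of the 1326 lower genes (blue) below 0 on the H3.1 axis.

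The gene groups described above had counterparts in the H3.1 pair of differing size. MHC class I genes had a median H3.1 difference of 1.35 and Schlafen genes of 2.23, cartilage genes of -1.52 and collagens of -0.51. In these libraries, K36M first and K36R second, H2-K1 was at 17598 and 1744 normalised reads, B2m at 79043 and 29209, and Nlrc5 at 2935 and 250. Wscd2 was at 18.4 and 2400, and Eln at 6.57 and 3220. Other genes were called in the H3.3 lines and lay near 0 in the H3.1 pair: Stra6 (34.2 and 36.1 normalised reads), Fas (3596 and 3477), Meg3 (789 and 684) and the integrin chain gene Itgb3 (1738 and 1788, against an H3.3 difference of -1.14). Itgb3 did not pass without K36M (limma adjusted p = 0.177), K36I (0.0555), WT (0.0542) or K36A (0.0554), Meg3 without K36M (0.0818) or K36I (0.113), Fas without K36I (0.0807), nor B2m (0.0668 and 0.0562) and Eln (0.0603 and 0.0659) without K36M or K36I. Replication-dependent histone genes had a median of -0.68 in the H3.1 pair and 0.06 in the H3.3 lines. Whether the pairs differ in any of these was not tested, since the H3.1 side has 1 library a group.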

How the data were processed

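RNA-seq of 8 lines was used, 6 of them in tests. Per the submitters' processing notes the authors used Trimmomatic 0.32, STAR 2.3.0e, featureCounts 1.4.4, DESeq2 and the mm10 build; order, settings, annotation and strand: not given in the sources used here. Log2 values were deposited by the authors, and their shape is that of a variance-stabilising transform. Inverting it gave whole reads in 100% of values (tolerance 0.001), from which depths and normalised reads (reads divided by size factors) were computed; columns of no sample numbered 0.

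The deposited log2 values of the genes kept were tested with limma 3.58.1 (R 4.3.3), 2 lines against 4, with an intensity trend in the empirical Bayes variance and Benjamini-Hochberg adjustment over 14151 genes. The recovered reads served for voom as an alternative, since a count model was not the main test of log2 values. On simulated data with changes planted in well-expressed genes only, 82% of those of size 1 and 97% of size 2 were called, and 13 of 13951 unchanged genes. Noise was drawn apart for each gene and library, from the spread of the 4 comparison lines. The simulation thus holds no differences shared by many genes of a line and no planted changes near the filter. Its rates may not hold for the real lines.

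Members, the 56 gene lists (1338 genes, 1319 in the table, 1011 kept) and tests were chosen with earlier results of these data known. Named genes were the 12 largest and 6 smallest adjusted p each way, up to 4 called members of each list, up to 3 part-way genes per comparison line and 4 each way opposite in H3.1, 222 in all, leaving out unnamed predicted genes among the largest. Of these, 1 opposite in H3.1 is not reported here. A further 62 were named after their values were seen. Exons of 63 of the 222 overlap another gene, 49 on the opposite strand. The 15 alternatives were another variance model, filters, scalings, weights, comparison lines and leaving out each line; where K36M or K36I was left out, the lone line was assumed to vary like the other class.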

Additional observations from a re-analysis of the deposited data

Results flagged for a closer look

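A few genes that passed in the H3.3 lines went the other way in the H3.1 pair, and each stands here because of those opposite signs. The difference between the pairs was not tested, since the H3.1 pair has 1 library on each side. Higher in H3.3 K36M and K36I but lower in H3.1 K36M than in H3.1 K36R were Trib3, a stress-induced pseudokinase gene (0.65 in the H3.3 lines, -1.03 in the H3.1 pair), and Epha4, an Eph receptor gene (2.36 and -0.97). Angptl6 (1.17 and -0.72) and the imprinted Mkrn3 (0.42 and -0.56) did the same.

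Lower in H3.3 K36M and K36I but higher in H3.1 K36M were Rassf6 (-0.78 and 0.82), Dpy19l1 (-0.43 and 0.74) and the heparan sulfate editor gene Sulf2 (-0.96 and 0.73). All 7 lost their call in at least 1 fit that left out a line: without K36M or K36I Trib3 (limma adjusted p = 0.101 and 0.0962), Mkrn3 (0.188 and 0.174), Rassf6 (0.127 and 0.226) and Dpy19l1 (0.0816 and 0.0933), without K36M Angptl6 (0.0518) and Sulf2 (0.0799), and without K36I Epha4 (0.0594). Mkrn3 and Rassf6 were also lost without WT (0.0858 and 0.102), K36L (0.0682 and 0.0685) or K36R (0.0620 and 0.0583), and Mkrn3 (0.0680) without K36A.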

How the results depend on the processing

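No named gene that passed the test reversed under any of the 15 alternatives. Of 205 named genes that passed, 117 passed without K36M, 125 without K36I and at least 163 in each other setting, save the stricter filter, under which only 177 were tested and all 177 passed. The number of genes called ran from 866 (without K36M) to 2354 (without K36A) when 1 line was left out, and was 1022 without K36I, 1627 without WT, 1816 without K36L and 2350 without K36R. The higher genes ran from 374 to 1156 and the lower from 492 to 1294. With no filter 1924 genes were higher. With WT and K36R alone as comparison lines 746 were higher, and with K36A and K36L alone 1502 were called, 729 higher and 773 lower. These fits use fewer samples or more genes. Voom called 2426 genes and array weights 2937. Of the 205 named genes that passed, 22 did not with voom weights. Besides those named above, Il1rn, Epas1 and Col27a1 were among them. With WT and K36R alone as comparison lines 40 were lost, and with K36A and K36L alone 42. Only some of these losses are named above. No paired analysis was possible because each transgene has 1 library, all numbered 1 within its group. Depth was even over the 6 lines and limits only genes near 3 reads; the precision is limited by 2 lines against 4.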

Other observations

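Some changed genes were neighbours. Among the runs of at least 4 neighbouring genes called in the same direction, 27 in all, the longest lay on chromosome 1 from 135371057 to 136346104, where 10 genes were lower. They include the muscle genes Csrp1, Tnni1 and Tnnt2, the desmosome gene Pkp1, Phlda3, Nav1 and Ipo9. Runs of 6 were the higher Schlafen genes of chromosome 11, the higher H2 genes of chromosome 17 from 35262730 to 35443773, the lower imprinted genes of chromosome 12 from 109541001 to 109749460, and a lower run on chromosome 8 from 40511783 to 41133726. The neighbours can share reads, and how many runs chance gives was not tested.

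Chromosomes differed in their shares of called genes. On chromosome 14 19.2% of genes were lower and the median difference was -0.12, and on chromosome 9 14.5% were lower (-0.09). On chromosomes 19 and 6 14.0% and 13.8% were higher. Set against the 6-line median of each gene, chromosome 14 had a median of -0.03 in K36M and -0.14 in K36I. On chromosome 9 these medians were -0.04 and -0.06. The median difference in the H3.1 pair was -0.1 on chromosome 14 and 0.1 on chromosome 9. Copy number of the lines was not measured.

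The proliferin gene Prl2c3, of a family of placental hormones with near-identical copies, was at 262 and 589 normalised reads in H3.3 K36M and K36I, 10.2 to 37.0 in the other 4, and, in the H3.1 pair, 8196 with K36M and 128 with K36R.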
